A study of Arabidopsis thaliana with 18 samples.

Results

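The response of Arabidopsis root tips to cycloheximide (CHX) alone was measured by comparing 3 arrays of root CHX with 3 arrays of root MS, 6 of the 18 arrays of the series. The arrays were chosen by their labelled treatment, and all 38408 features of the array were described, by gene function and by the signal level from which each gene started. Seedlings 4 days old were moved to MS medium alone (root MS) or to MS medium with CHX (root CHX) for 1 h, and RNA was taken from their root tips. Both groups were Col-0 and both carried pRPS5A-TMO5-GR, in which the RPS5A promoter, active in dividing cells, drives a fusion of the bHLH factor TMO5 to the glucocorticoid receptor. Neither group received dexamethasone (DEX), the ligand that lets the fusion enter the nucleus. The series also holds root DEX and root DEX+CHX, of the same line, age and time, and sorted J0571 cells that are not analysed here.

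CHX blocks the elongation step of cytosolic ribosomes and thereby stops the synthesis of proteins encoded in the nucleus. It does not block the bacterial type ribosomes of plastids and mitochondria. In plants and animals the drug is known for raising short-lived messages of early response genes, because labile repressors and decay factors are no longer replaced and some messages are held on stalled ribosomes. In studies with receptor fusions it is added to separate direct targets from later ones, so its own effect is the background of such an experiment.

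The values were log2 signals. All 3 CHX arrays stood apart from all 3 MS arrays. Over all features the arrays of a group correlated at 0.984 to 0.986 (root MS) and 0.990 to 0.992 (root CHX), and arrays of different groups at 0.949 to 0.955. The first principal component of the 6 arrays held 73.7% of the variance and separated the groups. Named markers of the root were present: the root hair expansins EXPA7 and EXPA18 had means of 8.92 ± 0.09 and 10.35 ± 0.05 (SD, n = 3) in root MS and 8.41 ± 0.12 and 9.94 ± 0.24 in root CHX, and neither passed the test. LHW, the partner of TMO5 in vascular cells, had a mean of 8.12 ± 0.17 in root MS and 7.93 ± 0.09 in root CHX and did not pass. The photosynthesis genes RCA and LHB1B2, listed as markers of shoot tissue, were also measured, at 7.16 ± 0.37 and 8.35 ± 0.20 in root MS and at 6.99 ± 0.29 and 8.09 ± 0.09 in root CHX, and neither passed. Their part in the results was not tested.

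CHX changed the level of many genes within 1 h, and the large changes were nearly all increases. Of 16542 genes represented by a feature of their own, 2217 (13.4%) rose and 2034 (12.3%) fell at an adjusted p under 0.05 (limma, Benjamini-Hochberg over all 38408 features). At least 2-fold increases were seen in 881 genes (5.33%) and at least 2-fold decreases in 76 (0.459%). Increases of at least 4-fold numbered 312, of at least 8-fold 150 and of at least 32-fold 25, against 8, 2 and 0 decreases. The median change was 0.82 log2 among the genes that rose and -0.44 log2 among those that fell. In whole root tips, fewer cells of a type and less RNA per cell cannot be told apart.

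Nearly all of the increases were also called under both other scalings of the arrays, while most of the decreases were lost with equal array medians and most were kept after quantile normalization. The medians of the CHX arrays (4.62 to 4.63) lay below those of the MS arrays (4.76 to 4.85), a shift of -0.17 log2. The shift was not the same at all levels. Lower quartiles were 2.61 to 2.62 in root CHX and 2.85 to 2.90 in root MS. Upper quartiles were 7.28 to 7.29 in root CHX and 7.25 to 7.30 in root MS. The array medians were taken over all 38408 features, whose median change was -0.13 log2. Among them are 6976 unnamed features with copies, at a median change of -0.69. The setting of equal medians thus rests in part on features that are tied to no gene. With the array medians made equal, 3295 genes rose and 642 fell, and with quantile normalization of the root arrays 3238 rose and 1610 fell. Of the 2217 genes that rose in the deposited values, 2202 rose under all 3 scalings. Of the 2034 that fell, 1572 fell after quantile normalization, 642 at equal medians and 628 (30.9%) under all 3. Of the 76 decreases of at least 2-fold, 67 were called after quantile normalization, 39 at equal medians and 38 under all 3. Decreases under 0.5 log2 made up 62.5% of all decreases, so the gene lists that fell are given below with their count at equal array medians. The median change of all genes was -0.05 log2 in the deposited values, 0.12 at equal medians and 0.10 after quantile normalization, and each list is to be read against it. Equal medians raised every change by the same constant, so a gene that rose could hardly lose its call there. Both scalings raised the median of all genes, so the increases kept and decreases lost are no test of which were sturdier.

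The 10 largest increases ran from 5.81 to 6.56 log2. The tables used here give a locus number but no name or function for any of these 10 genes. AT3G29000 stood at 2.87, 3.25 and 2.79 on the MS arrays and at 9.52, 9.49 and 9.59 on the CHX arrays. The groups were far apart, with a change of 6.56 (SE 0.14, adjusted p = 1.72e-09), a 94.6-fold increase. AT1G30190 rose by 6.48 (SE 0.12, adjusted p = 6.79e-10), from a mean of 3.14 ± 0.13 (SD, n = 3) to CHX arrays of 9.57, 9.52 and 9.78. All 3 CHX arrays were again above all 3 MS arrays. AT1G35210, AT5G22520, AT1G07135, AT5G64870, AT1G06135, AT5G40000, AT2G32200 and AT5G11140 followed, with changes of 6.25, 6.06, 5.95, 5.94, 5.93, 5.89, 5.85 and 5.81. These 10 genes started between 2.44 and 4.19 log2, below the median of each MS array, and ended between 8.70 and 10.13. The deposited table carries no detection calls, so a fold from so low a start is a ratio of deposited signals near the bottom of the scale.

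**Figure D1:**
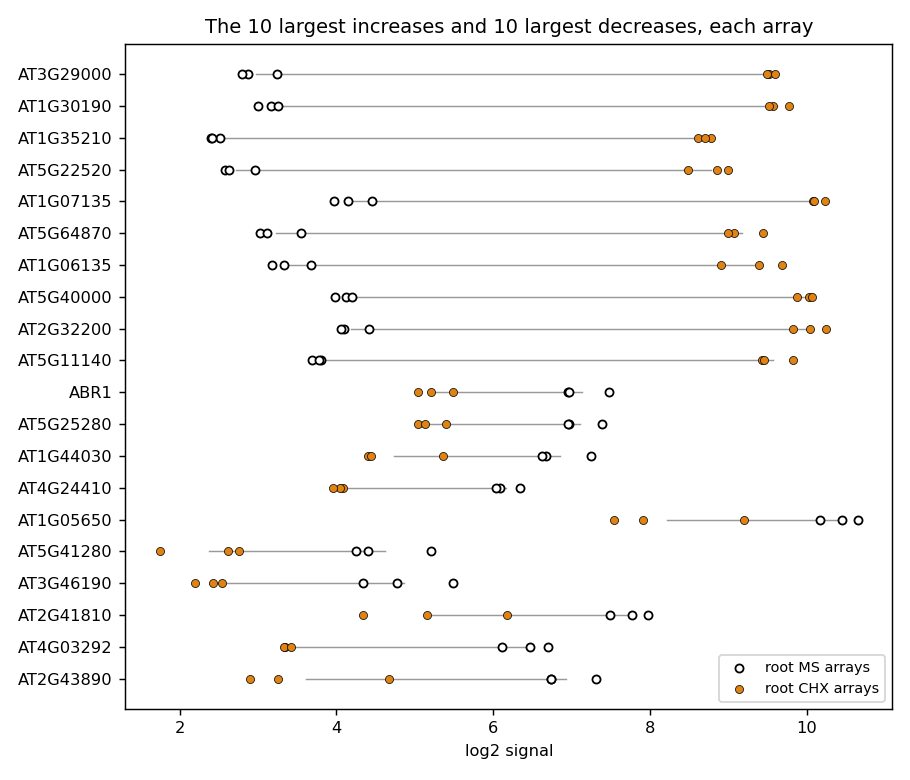
Log2 signal of each root MS array (open circles) and each root CHX array (filled circles) for the 10 genes with the largest increase and the 10 with the largest decrease, 1 row per gene, lines joining the group means. No gene's groups overlap, and the increases span 5.81 to 6.56 log2 against 1.88 to 3.31 log2 for the decreases.

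Genes of several transcription factor families rose, against 13.4% of all genes. WRKY factors bind W-box sequences and many act in defence. Of 7 named here, out of 68 matched in the reference, 5 rose and none fell. WRKY41 stood at 2.38, 3.87 and 3.32 on the MS arrays and at 9.09, 7.98 and 9.19 on the CHX arrays. Its arrays scattered more than most in both groups, yet the lowest CHX array was over 4 log2 above the highest MS array, and the change was 5.56 (SE 0.51, adjusted p = 2.21e-05). WRKY22, a factor of the response to flagellin, rose by 1.09 (SE 0.13), WRKY6 by 0.76 (SE 0.10), WRKY47 by 0.55 (SE 0.08) and WRKY42 by 0.87 (SE 0.24). The call of WRKY42 was lost without root CHX replicate 1 or 2 or root MS replicate 3, with an adjusted p of up to 0.0719. WRKY20 (change -0.00) and WRKY29 (-0.15) did not pass. WRKY6 began at 11.04 log2, among the strongest signals on the arrays.

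Of 42 ERF/AP2 factors, the family that includes the ethylene response factors, 21 rose and 2 fell, and 16 of the increases were at least 2-fold. This list and the C2H2 list were completed by locus number after the largest changes had been seen, so their counts are a description only. The largest were at AT1G77640 (5.67), AT1G44830 (4.48), AT1G33760 (4.46) and AT5G21960 (4.00). AT1G77640 stood at 4.48, 4.32 and 3.89 in root MS and at 9.87, 9.51 and 10.31 in root CHX, with no overlap. The 2 that fell were ABR1, a repressor in abscisic acid signalling, which fell by 1.88 on the log2 scale (SE 0.20, adjusted p = 6.89e-05), and tny, the TINY factor, which fell by 0.80 (SE 0.20, adjusted p = 0.0126). The call of tny was lost without root CHX replicate 3 (adjusted p = 0.0505) and at equal array medians (adjusted p = 0.0502), and without that array 1 of the 42 fell. The median of the list was 0.68 log2, and its members lay on both sides of 0, from -1.88 to 5.67.

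Of 15 C2H2 zinc finger factors 7 rose and none fell, with 1 decrease when root MS replicate 2 was left out. The largest increase was at AT3G46080 (5.02). STZ, also called ZAT10, a repressor induced by salt and cold, stood at 8.26, 9.01 and 9.28 in root MS and at 11.96, 11.89 and 12.08 in root CHX. All CHX arrays were over 2 log2 above the highest MS array, and the change was 3.13 (SE 0.29, adjusted p = 2.18e-05). ZAT7 rose by 3.18 (SE 0.15) from a level of 2.09, near the lowest signals on the arrays. The bZIP factors rose in 10 of 25 cases and fell in 1. BZIP60, which drives the response to unfolded proteins in the endoplasmic reticulum, rose by 2.11 (SE 0.18, adjusted p = 1.29e-05), from 6.43, 7.16 and 6.83 to 9.01, 8.67 and 9.06. BZIP34 rose by 1.30 and BZIP24 by 0.98. bZIP19, a factor of the response to zinc deficiency, was the member that fell, by 0.87 (SE 0.13). Of 12 bHLH factors 2 rose and 2 fell (16.7% each). Of genes that started between 6 and 7 log2, 19.6% rose and 15.4% fell, so the bHLH shares were near these. That interval holds the median level of the bHLH list and of the bZIP list. BHLH92 had the largest change of the bHLH factors, 2.81 (SE 0.54), with CHX arrays spread from 3.83 to 5.98 above MS arrays of 1.77 to 2.28. Without root CHX replicate 1, 1 of the 12 rose, and 1 fell without root CHX replicate 1 or 3 or root MS replicate 3. HAT2, an auxin-inducible homeobox factor, rose by 1.65 (SE 0.16).

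Several calcium sensors rose. Of 7 calmodulin-like (CML) genes named on the array, out of 91 calmodulin and CML genes matched in the reference, 5 rose, all at least 2-fold, and 1 fell. Of genes that started between 3 and 4 log2, the interval of this list's median level, 12.6% rose, 6.7% at least 2-fold. CML37 stood at 3.32, 3.44 and 3.61 in root MS and at 8.36, 8.16 and 8.24 in root CHX. The change was 4.79 (SE 0.14, adjusted p = 8.1e-09), a 27.8-fold increase with no overlap of the groups. CML23 rose by 3.87 (SE 0.15), CML38 by 3.45 (SE 0.19), AT1G76640, whose synonym in the reference is CML39, by 2.26 (SE 0.46), and CML41 by 1.29 (SE 0.24). CML43 fell by 0.37 (SE 0.09, adjusted p = 0.0124), and that call was lost at equal array medians (change -0.20) and after quantile normalization. CML42 (-0.08) did not pass.

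U-box ubiquitin ligases rose in 8 of 10 cases, 7 of them at least 2-fold, and none fell. The 10 are those named on the array, out of 23 matched in the reference. Of genes that started between 4 and 5 log2, the interval of this list's median level, 20.5% rose, 9.44% at least 2-fold. PUB22, PUB23 and PUB24 attach ubiquitin to proteins of defence signalling and are known to damp it. PUB23 was already among the strong signals, at 10.36, 10.64 and 10.47 in root MS, and reached 12.38, 12.16 and 12.47 in root CHX. The change was 1.85 (SE 0.13, adjusted p = 3.45e-06). PUB24 rose by 1.83 (SE 0.14) and PUB22 by 1.24 (SE 0.10), the latter with CHX arrays at 10.81 to 10.82 and MS arrays at 9.56 to 9.60. PUB54 rose by 2.47, PUB19 by 1.62, PUB26 by 1.62, PUB25 by 1.38 and PUB39 by 0.96. PUB43 (0.18) and PUB15 (-0.10) did not pass. Of 9 ATL and other RING ligases 4 rose and none fell, with ATL5 at 1.23 and RHF1A at 0.85. Of genes that started between 6 and 7 log2, the interval of that list's median level, 19.6% rose.

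Genes placed by locus number on the list of TIR-NBS-LRR and other nucleotide-binding (NLR) proteins, the intracellular receptors of plant immunity and their relatives, rose in large number. Of 119, 53 rose (44.5%), 40 of them at least 2-fold, and 1 fell. With 1 array left out, 50 to 53 rose. AT1G72920 had the largest change, from 4.54, 4.67 and 4.53 to 10.33, 10.26 and 10.40, a change of 5.75 (SE 0.15, adjusted p = 3.19e-09). AT5G41750 followed at 5.53 (SE 0.10), then AT5G41740 at 4.94 and AT5G41550 at 4.91. The other 65 did not pass, and the median of all 119 was 0.39 log2 against -0.05 for all genes. Of genes that started between 4 and 5 log2, the interval of this list's median level, 20.5% rose, 9.44% at least 2-fold. Their median change was 0.06 log2. Members of the NLR family are often tandem copies of similar sequence, and probes shared between copies would give them the same change. AT5G40100 was the member that fell, by 0.46 (SE 0.11), and its call was lost at equal array medians. That count of 1 became 2 without root CHX replicate 3 or root MS replicate 3.

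The receptor-like kinases, the proteins that sense signals at the cell surface, moved less evenly. Of 66, 14 rose (21.2%), 6 fell (9.09%) and 46 did not pass. These shares were near those of genes that started between 5 and 6 log2, the interval of this list's median. Of those genes 22.3% rose and 8.11% fell, with a median change of 0.04 log2 against 0.03 for the list. AT1G51820 rose by 3.64 (SE 0.38) and AT1G53440 by 2.00 (SE 0.15), while AT4G20450 fell by 1.30 (SE 0.27). The count of 6 that fell was 1 at equal array medians, where 23 rose. Leaving out root CHX replicate 2 or 3, or root MS replicate 1 or 3, brought it to between 2 and 3. Among 41 genes of CLE and other small signalling peptides 10 rose (24.4%) and 4 fell (9.76%). Of genes that started between 3 and 4 log2, the interval of this list's median level, 12.6% rose and 3.58% fell. IDL4, a relative of the abscission peptide IDA, rose by 2.45 (SE 0.14), from 6.43, 6.23 and 6.66 to 8.80, 8.77 and 9.11. CLE25, a peptide of the response to drought, rose by 1.76 (SE 0.18), and CLE41, a peptide that acts on vascular stem cells, by 1.38 (SE 0.17). The 4 that fell did so by 0.35 to 0.55 log2. They were CLE1 and the RALF-like genes RALFL28, RALFL31 and RALFL32. None of the 41 fell at equal array medians, and 0 to 2 fell when any 1 of the 6 arrays was left out. The list's median was -0.03 in the deposited values, 0.14 at equal medians and 0.18 after quantile normalization, where the medians of all genes were -0.05, 0.12 and 0.10. Its change of sign at equal medians is the constant that this setting adds to every gene.

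Some genes of the early auxin response rose. GH3 enzymes link auxin to amino acids and so lower its free level. Of 6, out of 11 matched in the reference, 4 rose and none fell. Of genes that started between 6 and 7 log2, the interval of this list's median level, 19.6% rose. GH3.1 stood at 6.66, 6.35 and 5.58 in root MS and at 10.13, 9.93 and 10.30 in root CHX, a change of 3.92 (SE 0.26, adjusted p = 2.12e-06). GH3.3 stood at 6.17, 6.33 and 5.60 and then at 9.43, 10.23 and 9.67, a change of 3.75 (SE 0.34, adjusted p = 2.06e-05). In both genes the lowest CHX array was over 3 log2 above the highest MS array. WES1, also called GH3.5, rose by 1.01 (SE 0.15) and GH3.17 by 0.61 (SE 0.15). GH3.4 (-0.16) and GH3.9 (0.17), with means of 2.86 and 2.58 in root MS, did not pass.

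LBD16 and LBD29 act in the founding of lateral roots downstream of auxin. LBD29 rose by 3.24 (SE 0.15, adjusted p = 1.59e-07), from 7.94, 8.06 and 8.39 to 11.22, 11.36 and 11.53, and LBD16 by 1.85 (SE 0.10, adjusted p = 5.69e-07), from 8.12, 8.13 and 8.04 to 9.81, 10.13 and 9.90. LOB, the third LBD gene named here out of 41 matched, was between 2.06 and 2.21 in root MS and did not pass (-0.10). Aux/IAA genes encode short-lived repressors of auxin response. Of 8 named here, out of 32 matched in the reference, IAA29 rose by 1.29 (SE 0.19) and IAA18 by 0.79 (SE 0.15). The other 6 (IAA15, IAA20, IAA30, IAA31, IAA33 and IAA34) did not pass and had changes of -0.26 to 0.23. Of 5 SAUR genes, out of 78 matched in the reference, 3 rose, among them AT1G43040 by 1.91 (SE 0.21). Of genes that started between 3 and 4 log2, the interval of the median levels of the Aux/IAA and SAUR lists, 12.6% rose. RR16, a type-A response regulator of cytokinin signalling, rose by 1.29 (SE 0.40, adjusted p = 0.0339), but its call was lost when root CHX replicate 1 or 2 or root MS replicate 2 or 3 was left out, with an adjusted p of up to 0.123.

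Histone genes rose. Of 14 named here 9 rose, 6 of them at least 2-fold, and none fell, and the count of 9 was the same with any 1 array left out. Of genes that started between 4 and 5 log2, the interval of this list's median level, 20.5% rose, 9.44% at least 2-fold. HTB1 and HTB2 encode H2B, a core histone around which DNA is wound. HTB1 stood at 5.71, 5.57 and 5.49 in root MS and at 6.82, 6.95 and 6.83 in root CHX, a change of 1.28 (SE 0.14, adjusted p = 7.31e-05). HTB2 rose by 1.04 (SE 0.18, adjusted p = 0.00178), from a mean of 4.97 ± 0.21 (SD, n = 3) to 6.01 ± 0.15. AT3G53650, AT2G37470 and AT5G02570, on the list by locus number, rose by 2.08 (SE 0.24), 2.04 (SE 0.25) and 1.63 (SE 0.19). HON4, on the list by its name, rose by 0.43 (SE 0.08) from 10.16. HTB2 and HON4 fell outside the rule for named genes and were chosen after their values were seen. Histone genes are alike in sequence, so signal from one copy could be read by probes of another.

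Among cell wall genes a few rose strongly and most did not pass. Of 24 expansins, which loosen the wall, 3 rose (12.5%) and 1 fell (4.17%), against 13.4% and 12.3% of all genes. Genes that started between 5 and 6 log2, the interval of this list's median, rose in 22.3% of cases and fell in 8.11%. EXLA3 rose from 2.78, 2.79 and 2.98 to 7.54, 7.12 and 7.92, a change of 4.68 (SE 0.25, adjusted p = 4.04e-07). EXLA1 rose by 1.16 (SE 0.13) and EXPA15 by 1.06 (SE 0.16). EXLB1, the member that fell, fell by 0.41 (SE 0.12), a call lost at equal array medians and without root CHX replicate 2 or 3 or root MS replicate 1. The list's median was -0.21 in the deposited values, -0.04 at equal medians and 0.10 after quantile normalization, so its direction flipped under the last. Of 10 xyloglucan endotransglucosylases, which cut and rejoin wall xyloglucan, XTH18 rose by 2.08 (SE 0.20), XTH19 by 1.24 (SE 0.18) and XTH33 by 0.94 (SE 0.30). The call of XTH33 was lost without root CHX replicate 3 or root MS replicate 1 or 2.

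CSLC04, which makes the glucan backbone of xyloglucan, stood at 9.47, 9.46 and 9.53 in root MS and at 11.88, 11.80 and 11.97 in root CHX. The change was 2.40 (SE 0.08, adjusted p = 1.41e-08), the largest among genes that started between 9 and 10 log2. Its relative CSLC5 went the other way and fell by 0.70 (SE 0.07, adjusted p = 5.61e-05), with arrays of 8.91 to 8.99 and 8.15 to 8.31. Of 8 genes of the cellulose synthase superfamily 1 rose and 4 fell, but 1 fell at equal array medians. With root CHX replicate 1 or 2 or root MS replicate 1 or 2 left out, 1 to 2 fell. Genes that started between 8 and 9 log2, the interval of this list's median level, fell in 28.8% of cases. IQD22, of a family of calmodulin-binding proteins on microtubules, rose by 2.23 (SE 0.11), from 7.13 to 7.25 on the MS arrays and 9.38 to 9.47 on the CHX arrays. IQD26 and IQD16 rose by 1.11 and 1.06. On the same list of 28 cytoskeletal genes 6 fell (21.4%). That was near the 21.9% of all genes that started between 7 and 8 log2, the interval of the list's median. TUB9, a beta tubulin, fell by 0.54 (SE 0.10), and KINESIN-12B, a motor of the dividing cell plate, by 0.51 (SE 0.11). At equal medians 3 of the 28 fell.

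**Figure D2:**
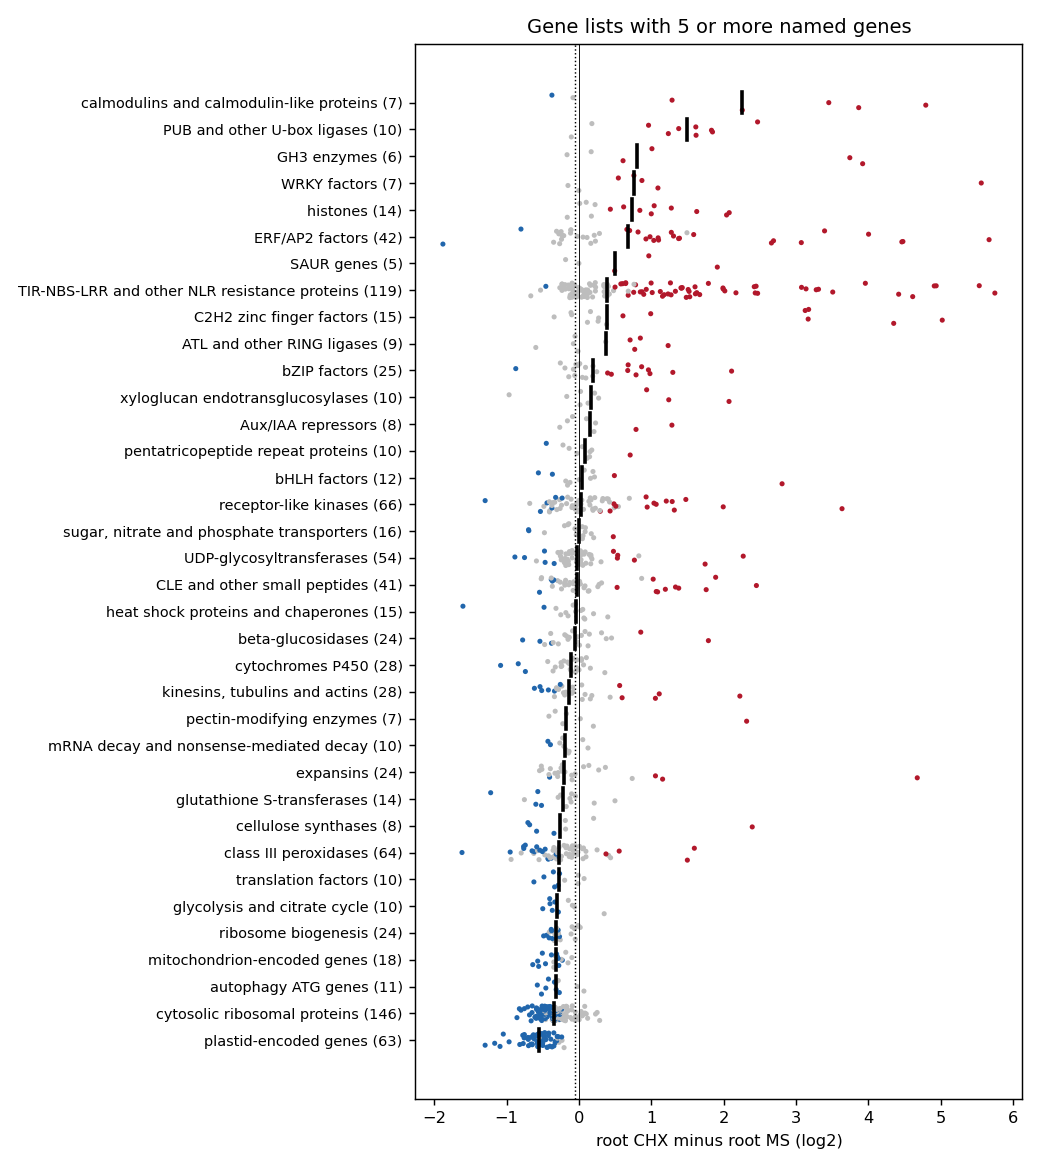
Change in log2 signal (root CHX minus root MS) of every named gene of the 36 lists with 5 or more members, 1 row per list with its number of genes, red for genes that rose, blue for genes that fell and grey for genes that did not pass. Black bars are list medians and the dotted line is the median of all genes (-0.05): calmodulin-like, U-box and GH3 genes lie at the top and ribosomal protein and plastid-encoded genes at the bottom.

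Genes of the translation machinery fell by small amounts. Of 146 genes placed on the list of cytosolic ribosomal proteins, completed by locus number, 80 fell (54.8%), none rose and 66 did not pass. Of all genes that started between 7 and 8 log2, the interval of this list's median level, 21.9% fell. The median change of the list was -0.35 log2, against -0.10 for all genes that started at the same level. Of the 146, 134 had a change below 0, and none fell by 2-fold or more. The largest decrease was at AT2G21580, which stood at 8.61, 8.31 and 8.13 in root MS and at 7.51, 7.38 and 7.58 in root CHX, without overlap (change -0.86, SE 0.13, adjusted p = 0.00066). At equal array medians 26 fell and 1 rose, with a median of -0.18, and after quantile normalization 71 fell and 3 rose, with a median of -0.30. Leaving out any 1 array left 56 to 79 decreases, and 1 of the genes rose without root MS replicate 3. Many ribosomal proteins are encoded by several similar genes, whose signals array probes may not keep apart.

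Other translation genes shifted the same way but rested on less. Of 24 genes of ribosome assembly 9 fell and none rose, with a median of -0.31. At equal medians 1 fell, and 3 to 4 fell when root CHX replicate 1 or 2 or root MS replicate 1 or 2 was left out. Genes that started between 6 and 7 log2, the interval of this list's median level, fell in 15.4% of cases and had a median of -0.04. Of 10 translation factors 6 fell and none rose, with a median of -0.28. Genes of the interval that holds this list's median level (9 to 10 log2) fell in 40.8% of cases and had a median of -0.22. EIF4A-2, an RNA helicase of translation initiation, fell by 0.35 (SE 0.10, adjusted p = 0.027). Its call was lost at equal medians, where 1 of the 10 fell. When root CHX replicate 1, 2 or 3 or root MS replicate 1 or 2 was left out, 1 to 3 fell. ALATS, an alanyl-tRNA synthetase, fell by 0.60 (SE 0.11, adjusted p = 0.00201) and also fell at equal medians (-0.43).

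Genes encoded in the organelles fell, those of the plastid most evenly. Of 63 plastid-encoded genes 58 fell (92.1%) and none rose, and all 63 changes were below 0. Of all genes that started between 10 and 11 log2, the interval of this list's median level, 44.1% fell. The median change of the list was -0.55 log2, against -0.25 for all genes that started at the same level. The median starting level was 10.49. At equal array medians 42 still fell (median -0.37), and after quantile normalization 52 did (median -0.46). ndhC, a subunit of the plastid NDH complex, stood at 9.62, 9.97 and 9.95 in root MS and at 8.54, 8.57 and 8.54 in root CHX. It fell by 1.30 (SE 0.10, adjusted p = 5.96e-06). ndhK, of the same complex, fell by 1.16 (SE 0.10), ccsA, needed to attach haem to cytochromes, by 1.09 (SE 0.10), and rps16, a plastid ribosomal protein, by 1.04 (SE 0.13). For 2 widely known genes, chosen after their values were seen, rbcL, the large subunit of Rubisco, fell by 0.66 (SE 0.08) from 11.31, and psbA, a core protein of photosystem II, had a change of -0.23 (SE 0.08, adjusted p = 0.0519) from 12.44 and did not pass. Genes of a plastid operon share transcripts, so the 63 are not independent.

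Of 18 mitochondrion-encoded genes 11 fell (61.1%), none rose, and all 18 changes were below 0, with a median of -0.32 against -0.24 for all genes that started at the same level. Of all genes that started above 11 log2, the interval of this list's median, 46.2% fell. ccb382 and ccb203, of cytochrome c maturation, fell by 0.64 (SE 0.09) and 0.56 (SE 0.08), and matR, a maturase, by 0.57 (SE 0.10). At equal medians 5 fell, and 6 to 7 fell without root CHX replicate 1 or 2 or root MS replicate 2. Cpn60beta4, a nuclear gene for a plastid chaperonin subunit, fell by 1.60 (SE 0.13, adjusted p = 7.19e-06), from 5.09, 4.94 and 4.60 to 3.37, 3.15 and 3.30. No heat shock or chaperone gene of 15 rose and 2 fell (13.3%), against 12.3% of all genes. Of genes that started between 3 and 4 log2, the interval of this list's median, 12.6% rose and 3.58% fell.

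Autophagy genes and genes of central metabolism fell slightly. ATG8 proteins coat the membranes that enclose material for degradation. Of 11 autophagy genes 7 fell and none rose, with a median of -0.32. Genes that started between 8 and 9 log2, the interval of this list's median, fell in 28.8% of cases and had a median of -0.16. ATG8D fell by 0.57 (SE 0.10, adjusted p = 0.0021), from 6.61, 6.34 and 6.65 to 5.98, 6.05 and 5.86. APG8A, also called ATG8A, fell by 0.52 (SE 0.12, adjusted p = 0.00724). These 2 were the members that also fell at equal medians, and 3 of the 11 fell without root CHX replicate 1 or 3 or root MS replicate 1 or 2. Of 10 genes of glycolysis and the citrate cycle 6 fell and none rose, with a median of -0.31. Genes that started between 9 and 10 log2, the interval of this list's median, fell in 40.8% of cases and had a median of -0.22. ICDH, an isocitrate dehydrogenase, fell by 0.50 (SE 0.07, adjusted p = 0.000492), and GAPC2, a glyceraldehyde phosphate dehydrogenase, by 0.37 (SE 0.07, adjusted p = 0.0029), the latter not at equal medians, where 1 of 10 fell. RPN12b, named as a copy of a subunit of the proteasome lid, rose by 3.81 (SE 0.17), from 2.60 to 3.02 on the MS arrays and 6.50 to 6.78 on the CHX arrays.

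Among enzyme families of stress and secondary metabolism, 25% of the peroxidases and 28.6% of the glutathione transferases fell, against 12.3% of all genes. Of genes that started between 6 and 7 log2, the interval of the median level of both lists, 15.4% fell. Of 64 class III peroxidases, secreted enzymes that build and modify the wall, 16 fell, 4 rose and 44 did not pass, with 9 decreases and 5 increases at equal medians. AT4G16270 fell by 1.62 (SE 0.20, adjusted p = 0.00015), from 7.33, 7.32 and 7.21 to 5.82, 5.93 and 5.26. AT5G39580 rose by 1.60 (SE 0.08), from 8.93 to 9.09 on the MS arrays and 10.51 to 10.65 on the CHX arrays. Of 14 glutathione transferases 4 fell and none rose. GSTU27 fell by 1.22 (SE 0.17), and 2 of the 14 fell at equal medians or without root MS replicate 3. Of 28 cytochromes P450 3 fell and none rose, CYP71B29 by 1.08 (SE 0.20), and at equal medians 2 fell and 1 rose. The median of the P450 list was -0.11 in the deposited values, 0.06 at equal medians and 0.09 after quantile normalization, each time below the median of all genes, and its change of sign at equal medians is again that constant. Of 54 UDP-glycosyltransferases 6 rose (11.1%) and 5 fell (9.26%), near the shares of all genes (13.4% and 12.3%). UGT76D1 rose by 2.27 (SE 0.19), while UGT76B1, which acts on isoleucic and salicylic acid, fell by 0.89 (SE 0.10), from MS arrays of 10.20 to 10.40.

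The 10 largest decreases ran from 1.88 to 3.31 log2. Only ABR1 among them has a gene name in the tables used here. AT2G43890 stood at 6.73, 7.31 and 6.73 in root MS and at 3.26, 4.67 and 2.90 in root CHX. The groups were separate, but the CHX arrays spread over more than 1.5 log2, and the change was -3.31 (SE 0.47, adjusted p = 0.000434). AT4G03292 was tighter, at 6.70, 6.47 and 6.12 and then 3.34, 3.33 and 3.42, and fell by 3.07 (SE 0.16, adjusted p = 3.92e-07). AT1G05650 fell by 2.21 (SE 0.48, adjusted p = 0.00567) from a high level, 10.65, 10.45 and 10.17 in root MS and 7.91, 9.20 and 7.54 in root CHX. AT2G41810, AT3G46190, AT5G41280, AT4G24410, AT1G44030 and AT5G25280 fell by 2.52, 2.48, 2.25, 2.13, 2.11 and 1.92. In AT2G43890, AT1G05650 and AT2G41810 the same CHX array, replicate 2, was the highest of the 3, and all 10 kept their call with any 1 array left out.

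The starting level went with the direction of the change. Genes were sorted by their mean on the MS arrays into intervals of 1 log2. Below 3, 4.13% of 4725 genes rose and 1.84% fell. Signals this low lie near the bottom of the scale, which limits how far they can fall. The part of that limit in these shares was not tested. The share that rose was highest between 5 and 6, at 22.3% of 1677 genes, and was 41 of 408 genes between 10 and 11 and 3.16% above 11. The share that fell grew with each interval, from 8.11% between 5 and 6 to 21.9% between 7 and 8, 40.8% between 9 and 10 and 46.2% of 158 genes above 11. The intervals include the 63 plastid-encoded and 18 mitochondrion-encoded genes, whose median starting levels were 10.49 and 11.77. The top intervals and the organelle lists thus share genes, and shares without the organelle genes were not computed. Likewise, each list above is part of the genes of its level that it was set against. The median change went from 0.06 log2 between 4 and 5 to -0.10 between 7 and 8 and -0.25 between 10 and 11. Above 8 log2 the interval medians were -0.16 to -0.25 in the deposited values. At equal array medians they were 0.01 between 8 and 9, -0.05 between 9 and 10, -0.08 between 10 and 11 and -0.07 above 11.

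Large changes had their own distribution. At least 2-fold increases were seen in 168 of the 1677 genes between 5 and 6, in 2.24% of those below 3 and in 0.633% (1 gene) of those above 11. That 1 gene was AT4G32020, which rose by 1.03 (SE 0.07) from 11.30, 11.29 and 11.35 to 12.38, 12.33 and 12.34. At least 2-fold decreases were not seen below 3 or above 11 and made up at most 1.16% of an interval. Below 3 the lowest change was -0.69, and the bottom of the scale leaves little room there for a decrease. The largest increase of an interval was smaller at high levels, from 6.56 log2 below 3 to 4.55 between 7 and 8 and 1.85 between 10 and 11. Genes with an increase of at least 2-fold had a median of 5.19 before CHX and 7.28 after it, and those with a decrease of at least 2-fold 7.29 and 5.93. PUB23, the largest increase of the interval from 10 to 11, and CSLC04 are examples of strong genes that rose.

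**Figure D3:**
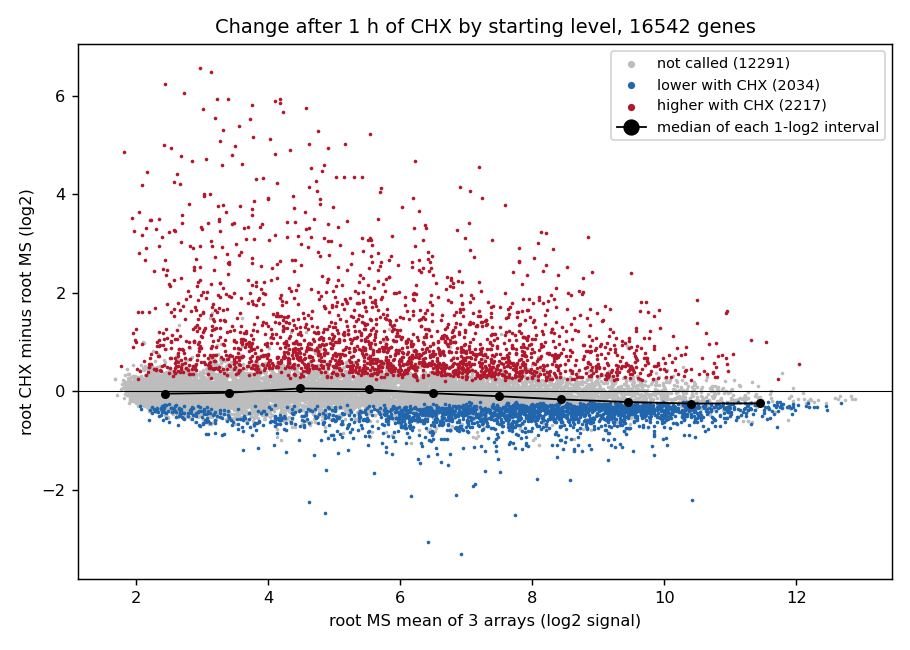
Change in log2 signal (root CHX minus root MS) against the mean log2 signal of the 3 root MS arrays for 16542 genes, red for the 2217 that rose, blue for the 2034 that fell and grey for the rest, with the median of each 1-log2 interval in black. Increases reach 6.56 log2 at low levels, and the median line drops from 0.06 between 4 and 5 to -0.25 between 10 and 11.

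The values of root MS stand both in the starting level and in the change. Sorting the genes by the root DEX arrays, which the contrast does not use, gave nearly the same shares: 21.8% rose and 8.70% fell between 5 and 6, and 129 of 861 genes rose and 40.7% fell between 9 and 10. The median change of genes at 10 and over was 0.29 log2 below that of genes at 4 to 6 by either sorting. At equal array medians 32.4% rose and 2.74% fell between 5 and 6, and 21.0% rose and 13.7% fell between 9 and 10. There the share that rose exceeded the share that fell in every interval up to 10. After quantile normalization 24.4% rose and 5.13% fell between 5 and 6, and 16.4% rose and 33.1% fell between 9 and 10. Equal medians add 1 constant to each array and cannot alter the decline of the median with level, so that setting bears only on the shares. After quantile normalization the median at 10 and over lay 0.36 log2 below that at 4 to 6. The level above which decreases outnumbered increases lay at 7 in the deposited and quantile values and at 10 with equal medians.

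**Figure D4:**
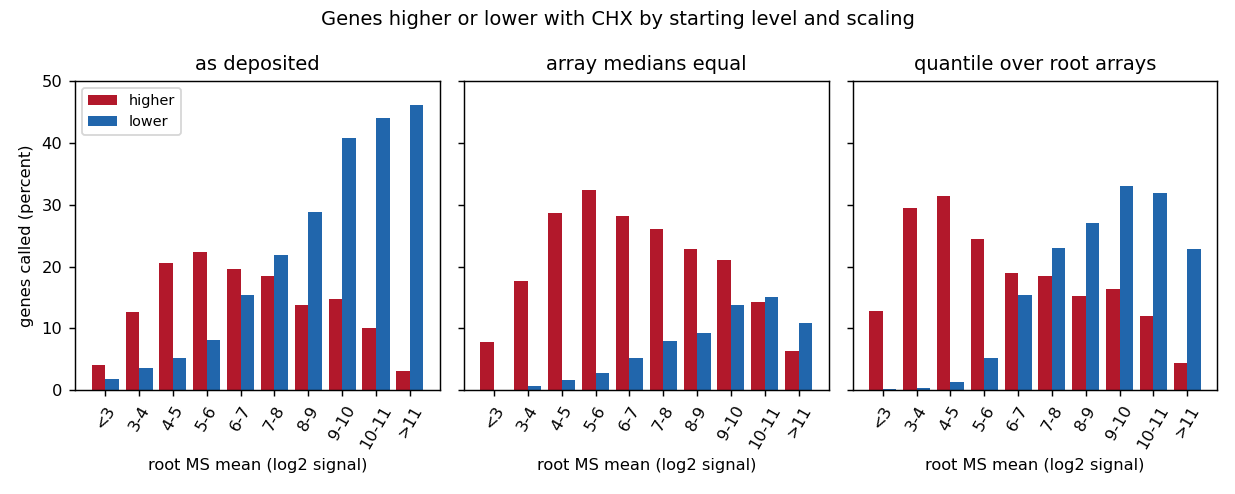
Percent of genes that rose (red) or fell (blue) in each interval of the root MS mean (log2 signal), for the deposited values, for equal array medians and for quantile normalization of the root arrays. In all 3 panels the share that rose peaks between 4 and 6, and in the deposited values the share that fell climbs to 46.2% above 11.

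Features without a gene name behaved differently according to kind. Over all 38408 features 3988 rose (10.4%) and 7558 fell (19.7%). Decreases were most frequent in 6976 unnamed features whose values are identical to those of other features, of which 2824 (40.5%) fell and 6 rose, with a median change of -0.69 log2 from a median level of 3.24. They hold 1554 distinct sets of values. Of the 7083 unnamed features numbered before the first one with a gene, 6510 had such copies, 2724 fell and 23 rose, with a median of -0.68. The 13951 unnamed features without a copy were closer to the named ones, with 1667 increases (11.9%), 2496 decreases (17.9%) and a median of -0.12. What the numbered run of features measures is not given in the sources used here. Counts over all features are therefore not counts of genes.

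The response was seen again in arrays that the comparison does not use. Root DEX+CHX against root DEX has the same CHX step in the presence of DEX. With each pair fitted on its own 6 arrays, 2219 genes rose (13.4%) and 1806 fell (10.9%) with DEX. Of the 1921 that rose without DEX on the same kind of fit, 1683 rose again, 87.6% of these and 75.8% of those with DEX. Of the 1396 that fell, 1007 fell again, 72.1% and 55.8% of the lists. All 880 increases of at least 2-fold, and all 75 such decreases, had the same sign with DEX. Across the 16542 genes the changes correlated at 0.948, as a description over genes that share arrays.

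AT3G29000 changed by 6.56 without DEX and 6.83 with it, PUB23 by 1.85 and 2.12, GH3.3 by 3.75 and 4.76, and ndhC by -1.30 and -1.48. The difference of the CHX responses passed the test at none of the 38408 features (0.0%, limma), and the lowest adjusted p of this limma test was 0.644. Before adjustment, 1684 features lay under 0.05. FAMT, chosen after its values were seen, changed by 2.52 (SE 0.78) without DEX and 4.65 with it. Its arrays scattered from 4.32 to 5.59 in root MS, its call without DEX was lost when 1 array was left out (adjusted p of up to 0.109), and the difference of 2.12 did not pass. CML43 and AT2G47340 had calls of opposite sign without and with DEX, -0.37 against 0.37 for the first and -0.39 against 0.31 for the second. AT2G47340 was chosen after its values were seen. Its call without DEX was lost at equal medians (-0.22), after quantile normalization (-0.12) and without root CHX replicate 1 or root MS replicate 1 or 2. With each pair fitted on its own arrays, 1 gene had calls of opposite sign. For CML43 and AT2G47340 the difference did not pass (adjusted p = 0.644 for both).

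**Figure D5:**
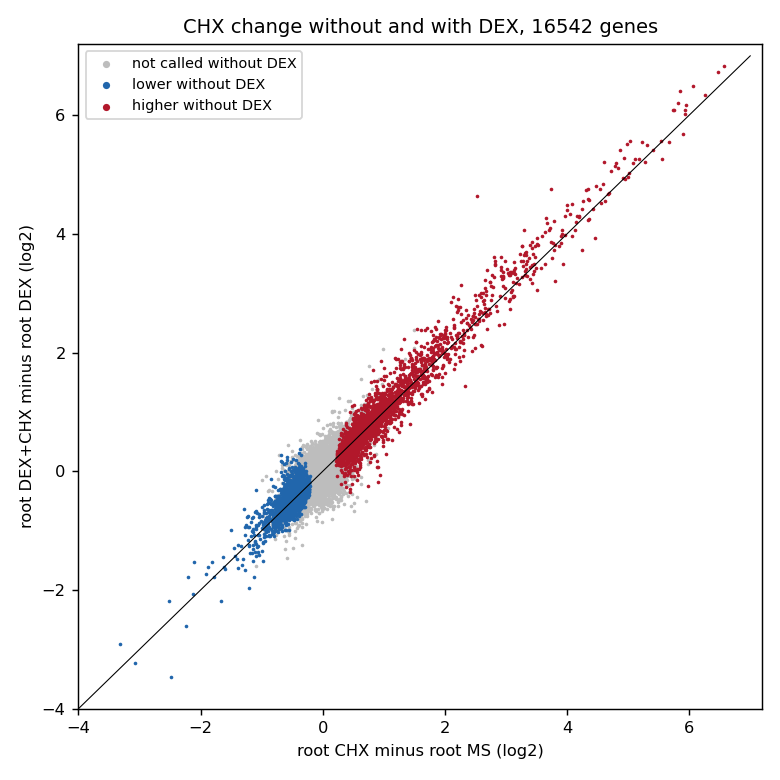
Change in log2 signal with CHX in the absence of DEX (x axis, root CHX minus root MS) and in its presence (y axis, root DEX+CHX minus root DEX) for 16542 genes, coloured by the call without DEX, with the line of equal change. The genes follow the line over the whole range, from -3.31 to 6.56 log2 on the x axis, and the changes correlate at 0.948.

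Some of the genes that rose lay beside each other. Among pairs of neighbouring protein-coding genes in the reference annotation TAIR10.1 with both named on the array (10352 pairs, 14028 genes), 770 genes rose at least 2-fold. Of these, 176 (22.9%) had a neighbour that also rose at least 2-fold, against 937 (7.07%) of the 13258 other genes, a description without a test. Runs of 3 or more adjacent genes that rose at least 2-fold numbered 15. The 2 longest held 5 genes each, from AT5G44580 to AT5G44600 with changes of 1.04 to 4.20, and from AT5G52670 to AT5G52710 with 1.61 to 3.51, both on chromosome 5. The run from AT5G41730 to AT5G41750 includes AT5G41740 and AT5G41750 of the NLR list. Neighbours that are tandem copies may share probe sequence, which was not tested. Only 5 pairs fell together by at least 2-fold, and in 2 pairs 1 gene rose and the other fell.

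Genes with an increase of at least 2-fold had a median span of 1768 bases in the reference annotation, those with such a decrease 1867 and all genes 1915. Among genes that started between 5 and 8 log2, 13.7% of those spanning up to 1187 bases rose at least 2-fold, against 9.39% at 1188 to 1915, 5.61% at 1916 to 2830 and 5.20% at 2831 and over. Decreases of at least 2-fold made up 2.92% of the shortest of these and 0.592%, 0.537% and 0.596% of the others. Genes with 1 annotated transcript and with several rose at least 2-fold in 5.54% and 4.94% of cases. On the 5 nuclear chromosomes 4.92% to 6.01% of genes rose at least 2-fold.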

How the data were processed

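Per the labels, total RNA was copied into whole-transcript cDNA, labelled with biotin and hybridized to gene arrays. The deposited values are log2 signals made by the authors with RMA, per the submitters' processing notes, its version and the set of arrays normalized together not being given in the sources used here. RMA in general corrects background, normalizes between arrays and summarises probes. Of 38408 features, 16722 carry exactly 1 gene in the platform table, 759 several and 20927 none here. Names were updated through RefSeq TAIR10.1 (16574 features linked), and for genes with more than 1 feature the one with the highest mean over the 12 root arrays was used.

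The 4 root groups (12 arrays) were fitted together with limma 3.58.1 in R 4.3.3, 1 mean per group, moderated two-sided tests and Benjamini-Hochberg adjustment over all features, threshold 0.05. Tables were made in Python 3.11.15 with pandas 2.3.3. The procedure was tested on simulated data. No label says that repeats were separate cultures, so the p-values cover only the variation among arrays labelled as repeats, which may be technical. For arrays their number, 3 per group, limits the precision. No sample or column was left out of the root groups. The replicate numbers were not taken to pair the samples.

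Genes were named by rule: called, with groups that do not overlap, the 10 largest changes each way, up to 4 each way per list, the largest per level interval, and all members of lists of up to 12. Exceptions are stated. The members, lists and tests were chosen with earlier results of these data known. Of 67 lists, 56 had a named member and 36 at least 5. A list holds only the members named on the array, so its counts are not those of the whole family. Ribosomal, NLR, peroxidase, histone, ERF, zinc finger, kinase, SAUR, chaperone and translation lists were completed by locus number from general knowledge, since most named features carry only a locus number. The ERF and zinc finger lists were completed, and genes of other families matched by name were removed from several lists, after values had been seen. Alternatives were quantile normalization, equal array medians, a filter on dim features, a trended robust variance, array weights, a replicate block, other sets of arrays or features, and leaving out each array. Promoter motifs and exon numbers, planned as descriptions, were not analysed here.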

Additional observations from a re-analysis of the deposited data

How the results depend on the processing

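In root CHX against root MS the counts of genes that rose stayed within 1.5 times under every alternative run, while the counts that fell moved with the scaling. At equal array medians 3742 features and 642 genes fell, 39 of the genes at least 2-fold, against 7558, 2034 and 76. There 4077 genes rose and 678 fell in root DEX+CHX against root DEX, against 2518 and 2288. With only features of 1 named gene tested, 2291 features rose and 2121 fell, against 3988 and 7558 of all features, because fewer features were tested, and the genes that rose and fell numbered 2276 and 2083. The median change of genes at 10 and over minus that at 4 to 6 was -0.294, with -0.241 for levels from the 12 root arrays and -0.358 after quantile normalization. Leaving out 1 array gave 1896 to 2027 genes that rose and 1415 to 1707 that fell, 856 to 915 and 76 to 90 at 2-fold. Where the scaling ended a call or moved a list's count, the cause was not tested. Of 72 list counts over 16 alternatives, 1027 values stayed within 1.5 times and 125 did not. Of 216 called genes followed over 16 alternatives, 60 lost the call in at least 1 and none reversed.

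Same-numbered root MS and root CHX arrays had deviations that correlated at -0.0138, -0.0618 and 0.00135, so the numbers were not taken to pair samples. With the replicate number as a block, 2170 genes rose and 1857 fell, 880 and 76 of them at least 2-fold, and no feature passed for the difference of the responses. Arrays give no counting depth. No detection call separates the lowest signals, under the lower quartiles of the MS arrays (2.85 to 2.90), from background.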
